A study of Drosophila melanogaster with 2 samples.

Results

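E2f2 peaks on the X chromosome of Drosophila melanogaster are described here beside those on the autosomal arms. They were all entries on X in the conservative peak list of the series, a list made from both replicates with an irreproducible discovery rate (IDR) threshold, which keeps peaks whose rank is stable between rankings. X held 1394 of the 7312 entries of that list (19.1%, exact 95% interval 18.2 to 19.98). These formed 1211 separate regions once overlapping entries were merged, and 76 entries repeated the interval of another entry with a different summit. The data came from 2 biological replicates of 1 group, whole embryos aged 0 to 24 h of a strain in which an insertion expresses E2f2 fused to eGFP, with chromatin sonicated to 200 to 800 bp and precipitated with an antibody against GFP. The sex of the embryos was not collected, and whole embryos mix many cell types. No other condition, untagged strain or input sample was analysed here, so X was compared only with other arms within the same lists.

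Of the E2F factors of the fly, E2f2 is the mainly repressive one. It binds DNA as a pair with Dp and works with Rbf or Rbf2, the retinoblastoma homologues of the fly, in the dREAM complex, which holds many genes of the cell cycle, of differentiation and of the germ line silent. The X chromosome differs from the autosomes in dose, because males carry a single copy. The male-specific lethal (MSL) complex, with the noncoding RNAs roX1 and roX2, compensates by raising transcription of X genes in males, and it first lands at sites rich in GA repeats.

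The E2F recognition sequence was written out as TTTGGCGC or TTTCGCGC and looked for on either strand up to 100 bp from the summit. On X it was present at 67 of 1394 summits (4.81%, 3.74 to 6.06). The 8 X regions of highest signal that held it are shown to give the sites and their surroundings. Sequences are from the forward strand of the RefSeq copy of Release 6, the assembly of dm6, with the match in capitals and cut short where the window reached an untranslated region.
Nrg, chrX:8517092-8517172: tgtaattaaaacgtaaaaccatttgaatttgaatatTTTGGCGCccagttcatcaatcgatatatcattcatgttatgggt
Hira, chrX:7721975-7722055: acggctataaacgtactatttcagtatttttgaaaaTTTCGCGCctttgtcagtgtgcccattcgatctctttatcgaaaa
regucalcin, chrX:12012255-12012335: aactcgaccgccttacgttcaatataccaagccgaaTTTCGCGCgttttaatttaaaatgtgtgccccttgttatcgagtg
TRAM, chrX:935042-935122: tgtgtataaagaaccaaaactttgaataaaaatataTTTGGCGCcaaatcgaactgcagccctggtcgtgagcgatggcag
Rilpl, chrX:1392901-1392981: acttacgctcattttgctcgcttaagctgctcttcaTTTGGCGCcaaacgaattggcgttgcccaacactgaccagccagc
Raf, chrX:2340006-2340035: tttaatacaaaTTTCGCGCctatgcacgcc
p24-1, chrX:11852594-11852674: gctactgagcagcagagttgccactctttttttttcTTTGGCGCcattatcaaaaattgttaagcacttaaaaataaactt
RhoGAPp190, chrX:17652707-17652736: atttatttgagGCGCCAAAtttaaactcaa

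The strongest of these, at Nrg, the gene of the adhesion protein neuroglian, had a signal of 1968 in the conservative list, and the replicate entries beneath it had 707 and 1252. Hira, which encodes a histone chaperone, had 1454 (552 and 910). Raf, the kinase between Ras and MAP kinase, had 1415 (542 and 893). The signal is the value deposited by the authors for each entry, on a scale that is not stated. It is used here only to rank and compare entries within a list. A tall, high or low peak means one with a large or small signal. At TRAM and Rilpl the match continued into its own reverse complement, so that the sequence read as a site on both strands. Such overlapping matches on both strands occurred at 3 of the 67 X summits, and these 3 had a median signal of 1210 against 246 for the other matches.

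Of the 8 bound X genes of the DNA replication list, only Mcm6 had a site of this form at its strongest peak. Of the 8 bound X genes of DNA repair and checkpoints, only mus101 had one. Both are shown because replication and repair genes are classical targets of E2F factors.
Mcm6, chrX:6674389-6674418: gtcagaaaaagGCGCCAAAaccgagcaaag
mus101, chrX:13722247-13722276: aataacaaacgGCGCCAAAatagcgtacgc
Both peaks were above the 75th percentile of signal of the X entries, 328. The Mcm6 peak, at a gene of the replicative helicase, had a signal of 438, with 189 in replicate 1 and 234 in replicate 2. The peak of mus101, a gene of replication start and checkpoint signalling, had 438, with 147 and 287.

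The tallest peaks of the list were rarely on X. None of the 50 strongest entries of the conservative list lay on X, which allows a share of up to 7.11% (upper exact bound). X held 4 of the 100 strongest, 47 of the 500 strongest (9.40%) and 105 of the 1000 strongest (10.5%, 8.67 to 12.6), against 19.1% of the whole list. Among the 1000 strongest, the 4 large autosomal arms held between 17.9% and 25.9% each. In the separate lists of the replicates, X held 119 of the 1000 strongest entries in replicate 1 (11.9%, against 18.7% of all its entries) and 10.8% of them in replicate 2 (against 18.5%). The replicates are parts of the evidence behind the conservative list and not independent of it.

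**Figure D1:**
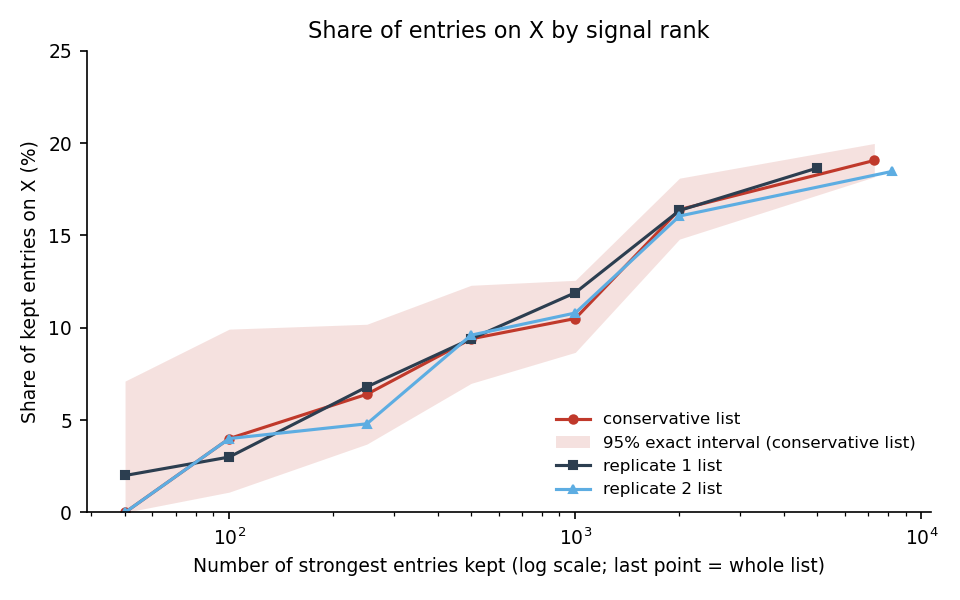
Share of entries on X (%, vertical axis) among the strongest entries of a list, by the number of entries kept (horizontal axis, log scale), for the conservative list and each replicate's list; the band is the exact 95% interval for the conservative list. All lines rise, from 0% (2.00% in replicate 1) among the 50 strongest to 18.5 to 19.1% in the whole lists.

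Low and middling X peaks were about as high as autosomal ones, and the gap opened toward the top. The median signal of X entries was 169 (interval of the median 160 to 177), within the range of the autosomal arms, 168 to 179. The 75th percentile was 328 on X and 378 to 447 on the 4 arms. The 90th percentile was 642 on X and 920 to 1104 on the 4 arms, and the pooled ratio of X to these arms was 0.637. In replicate 1 the 90th percentile was 299 on X against 446 on the pooled arms (ratio 0.671), and in replicate 2 it was 395 against 602 (ratio 0.655). The highest X entry had 2094, and the highest entry of each of the 4 arms lay between 3310 and 4459. X was thus below every large autosomal arm at the 75th, 90th, 95th and 99th percentiles in the conservative list. No test was run, since the entries of a list are not replicates. The ratio at the very top, 0.727 at the 99th percentile, rests on few entries.

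The gap was clear at promoters, and away from them it was seen only among the strongest entries. For summits within 500 bp of a protein-coding transcription start site (TSS), the ratio of X to the pooled arms was 0.925 at the median, 0.749 at the 75th percentile and 0.663 at the 90th. For summits farther away it was 1.08 at the median and 0.978 at the 90th percentile, and 0.705 at the 95th. The 90th-percentile ratio of these differed between the replicates, 0.618 in replicate 1 and 1.06 in replicate 2. X held 12 of the 100 strongest entries away from TSSs, but 22.0% of the 250 strongest, where the 4 arms held at most 21.6% each. It held 23.1% of the 1000 strongest, also more than any of the 4 arms. Near TSSs it held 11.6% of the 1000 strongest, below each of the 4 arms (18.1 to 26.4%). In the ranked lists, which hold entries before the IDR threshold, X entries were also lower: their median signal in replicate 2 was 11.5 against 13.0 to 13.4 on the 4 arms, and in replicate 1 it was 11.57 against 11.95 to 12.1. A pool of both sexes holds fewer copies of X than of an autosome. Its part in these values was not tested, because no input signal was analysed here.

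**Figure D2:**
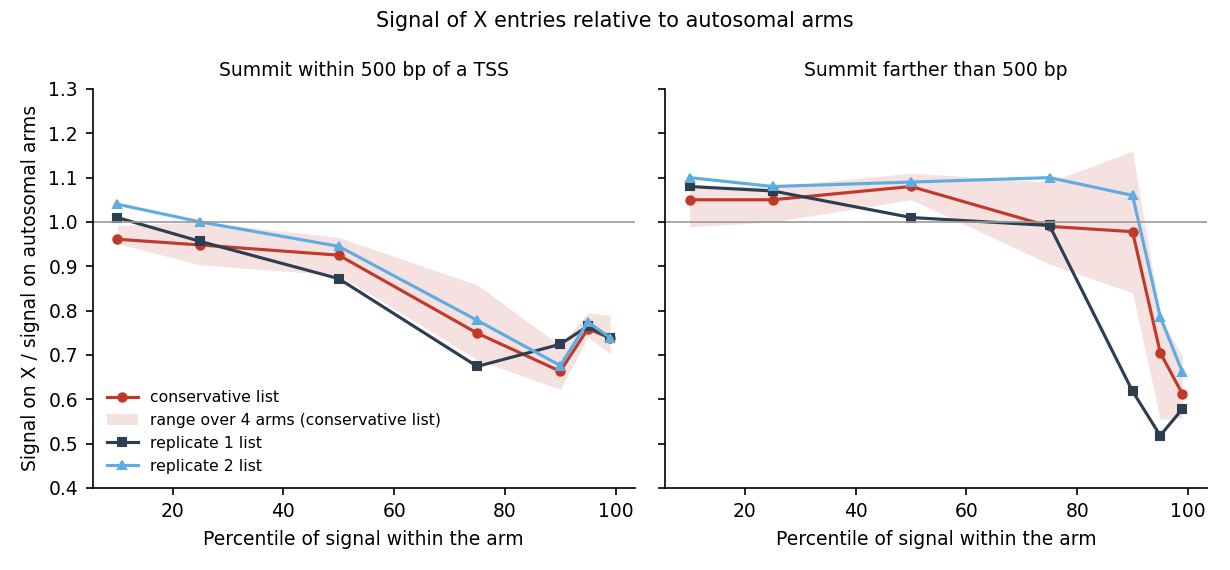
Ratio of the signal on X to that on the pooled arms 2L, 2R, 3L and 3R (vertical axis) at the same percentile of each (horizontal axis), for summits within 500 bp of a TSS (left) and farther away (right), with the line at 1 marking equal signal; the band spans the ratios of X to each arm in the conservative list. At promoters the ratio falls from 0.925 at the median to 0.663 at the 90th percentile in the conservative list, and away from promoters it stays near 1 up to the 75th percentile.

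The tallest X peaks stood mostly just upstream of protein-coding TSSs. The 20 X regions of highest signal ranged from 1464 to 2094, and their ranks in the whole list ran from 58 to 276. All 20 overlapped a thresholded peak of each replicate, and 17 had their summit within 500 bp upstream of a TSS. The highest lay at chrX:10764116-10764661 in the 5′ UTR of Tango5, a gene of the secretory pathway, with its summit 15 bp downstream of the TSS. Its signal was 2094, with 857 in replicate 1 and 1230 in replicate 2. Next were an intergenic peak 88 bp upstream of Axs, a gene known from meiotic chromosome segregation, with 1981 (804 and 1170), and the Nrg peak shown above. CG1354 followed with 1916 (701 and 1221). Replicate 2 had the higher value at each of these, as it did at 1350 of the 1390 X entries with an entry in both ranked lists, so the values are comparable within a replicate only.

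The other tall peaks stood at genes of varied function. betaCOP, a subunit of the COPI vesicle coat, had 1831 (766 and 1085). Ugalt, the Golgi transporter of UDP-galactose, had 1670 (435 and 1257), the most unequal replicate pair among the 20. Grp170, a chaperone of the endoplasmic reticulum, had 1614 (645 and 964). The list also held cib, which encodes an actin-binding protein, with 1714 (642 and 1073). The kinase genes CkIalpha, of Wnt and Hedgehog signalling, and AMPKalpha, the cellular energy sensor, had 1512 and 1464. Division genes among them were mei-38, a spindle gene, with 1475 (571 and 895), and Ndc80, of the outer kinetochore, with 1470 (527 and 944). A TSS of Rab27 lay within 500 bp of the mei-38 summit and a TSS of BthD within 500 bp of the Ndc80 summit. The remaining names were Alr, CG3847, CG11403, CG12236, PPP4R2r, CG3168 and Neb-cGP, with 1489 to 1774. CG3168 and 1 of the 2 Neb-cGP regions were the exceptions to the promoter rule: their summits lay 1255 bp upstream and 2493 bp downstream of the nearest protein-coding TSS, the second of them in the 3′ UTR of nocte.

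Summits with the E2F sequence had lower peaks on X than on the autosomal arms. X summits with it had a median signal of 256 (164 to 407, n = 67), and autosomal-arm summits with it had 600 (517 to 743, n = 321), with 522 to 739 on the single arms. Without the sequence the medians were 167 (n = 1327) and 170 (n = 5568). For summits with the sequence the same order held in each replicate's list. Without it the medians were 78.6 on X and 85.2 on the arms in replicate 1, and 105.7 and 102.9 in replicate 2. In replicate 1 the medians with the sequence were 154 (88.0 to 178) on X and 272 (230 to 319) on the arms, and in replicate 2 they were 139 (96.8 to 186) and 355 (296 to 449). Of the X summits with the sequence, 9 of 67 (13.4%, 6.33 to 24.0) were among the 1000 strongest entries, against 142 of 321 (44.2%, 38.7 to 49.9) on the arms. Summits without the sequence were also among the 1000 strongest less often on X, 96 of 1327 (7.23%, 5.90 to 8.76) against 752 of 5568 (13.5%, 12.6 to 14.4) on the arms. Restricting both to promoters gave 284 (154 to 473, n = 55) on X and 706 (556 to 796, n = 249) on the arms.

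**Figure D3:**
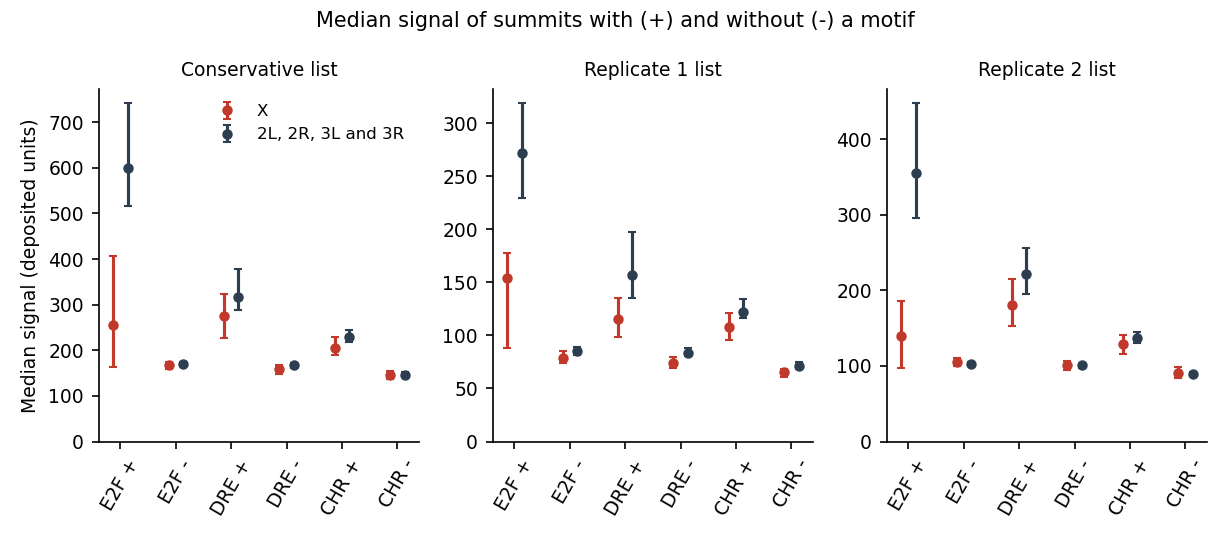
Median signal (vertical axis, deposited units, separate scales) of summits with (+) and without (-) the E2F, DRE and CHR sequences, on X and on the pooled arms 2L, 2R, 3L and 3R, in the conservative list and in each replicate's list; bars are 95% intervals of the median. With the E2F sequence the X point lies below the autosomal point in all 3 lists (256 against 600, 154 against 272, 139 against 355), and the intervals do not overlap.

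The share of summits with the E2F sequence was 4.81% on X and 5.45% on the autosomal arms, a difference of −0.644 points (−1.82 to 0.724). All windows of the same length around annotated protein-coding TSSs held it at 2.44% on X and 2.42% on the arms. Ranked entries that did not pass the threshold held it at 1.99% on X. A match describes the letters in the window and is not evidence of a bound site.

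The DRE, TATCGATA, recognised by the promoter factor Dref, was more frequent on X. It was present at 167 X summits (11.98%, 10.3 to 13.8) and at 9.68% of autosomal-arm summits, a difference of 2.30 points (0.519 to 4.25). X promoters as a whole also held more of it: 9.44% of TSS windows on X against 5.83% on the arms, where single arms ran from 5.21% to 6.18%. X summits with a DRE had a median signal of 276 (228 to 323), and those on the arms had 318 (288 to 379), so the intervals overlapped. In replicate 1 they did not, with 115.4 (98.4 to 135) on X and 157 (136 to 198) on the arms, while in replicate 2 the medians were 180.4 (153 to 215) and 222 (195 to 257). Of the X summits with a DRE 24 (14.4%, 9.43 to 20.6) were among the 1000 strongest entries, against 30.9% (27.1 to 34.9) on the arms.

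The E-box CAGCTG was less frequent on X, at 11.3% of summits against 13.6% on the arms, a difference of −2.29 points (−4.08 to −0.327). TSS windows differed in the same direction, with 11.9% on X and 13.8% on the arms. The CHR element, TTTGAA or TTCGAA, which MuvB complexes recognise in mammals, was at 45.5% of X summits and 45.8% of the others, against 29.2% of X TSS windows. The GA repeat, GAGAGAGA, was present at 28 X summits (2.01%, 1.34 to 2.89) and at 1.22% of those on the arms, a difference of 0.786 points (0.0951 to 1.70). Single arms ran from 0.908% to 1.59%. The intervals near TSSs (−0.008 to 1.88) and away from them (−0.515 to 2.62) both included no difference. In replicate 1 X had 18 summits with the repeat and 915 without, and the arms 38 and 4011. In replicate 2 the counts were 24 and 1500 on X and 109 and 6587 on the arms, so the share on X was not higher there. Among all TSS windows the GA repeat was present at 2.63% on X and 2.11% on the arms. The CA repeat, CACACACA, was at 3.66% of X summits and 3.02% of the others, and at 5.65% of X TSS windows.

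Because GA repeats mark the landing sites of the dosage compensation complex, the strongest X entries with one near the summit are shown.
AMPKalpha, chrX:1375450-1375530: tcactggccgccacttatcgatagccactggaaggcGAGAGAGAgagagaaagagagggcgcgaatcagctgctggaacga
CG3726, chrX:5918774-5918854: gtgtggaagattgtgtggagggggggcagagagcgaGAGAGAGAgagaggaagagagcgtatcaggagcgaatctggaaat
Capitals mark a match within the searched window, and the repeat goes on beyond it, at CG3726 on both sides. The AMPKalpha peak had a signal of 1464 and the CG3726 peak, in an intron 1750 bp from the nearest start, had 706 (199 and 503). Among X entries those with a GA repeat had a median signal of 117 (102 to 203), and those without had 170 (160 to 177).

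Along the chromosome the entries followed the genes. X carried 59.2 entries per Mb, next to 50.8 to 59.4 on the 4 large autosomal arms. Its gene density was lower, 93.3 protein-coding genes per Mb against 97.4 to 113, so per 100 genes X had 63.5 entries and the arms 47.9 to 52.7. Chromosome 4, with 29 entries, had 21.5 per Mb. Across the 24 bins of 1 Mb on X, the number of entries went with the number of genes (Pearson's r 0.816, Spearman's rho 0.836, as a description, since bins share the annotation and the list). The fullest bin, from 2 to 3 Mb, held 91 entries over 126 genes. The bin from 3 to 4 Mb had the most entries for its genes, 65 over 55, and 41.5% of its summits lay near a TSS. The bin from 14 to 15 Mb was sparse, with 26 entries over 88 genes.

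The bins nearest the centromere held few entries. Beyond 20 Mb there were 70 entries, or 19.8 per Mb and 35.9 per 100 genes, against 66.2 per Mb and 66.2 per 100 genes in the first 20 Mb. The decline was not even: the bin from 21 to 22 Mb still held 34 entries, or 61.8 per 100 genes, and the last bins held 5 and 2. The median signal was 168 beyond 20 Mb and 169 before, but most entries beyond 20 Mb lay in the bins from 20 to 22 Mb, with medians of 146.5 and 203, and the few entries of the last bins had 85.6 and 117. The widest space between neighbouring summits, chrX:21631654-22444727, was 813 kb long, spanned 22 annotated genes and held 6 ranked entries. The next, of 351 kb, held 83 ranked entries that did not pass, so entries were called there at low rank. The median space between neighbouring summits was 4904 bp on X and 5059 to 5771 bp on the 4 arms. The densest 100 kb of X, chrX:2060001-2160000, held 24 entries in 22 regions. It includes the Polycomb genes ph-d and ph-p and, named after its values were seen, wapl, a regulator of cohesin, which had the highest signal there (1069).

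X summits were somewhat less often at gene starts than autosomal ones. Of the X summits 926 (66.4%, 63.9 to 68.9) were within 500 bp of a protein-coding TSS, against 69.3 to 73.4% on the single arms and 71.5% pooled. The difference was −5.03 points (−7.79 to −2.33), and it was −4.83 and −3.51 points in the lists of replicate 1 and replicate 2. Intervals here treat each entry as an independent draw, which neighbouring entries are not. Among summits near a TSS, 77.4% on X and 76.9% on the arms lay upstream of it. The density of summits near a TSS, 39.3 per Mb, was within the range of the arms (35.2 to 43.2). The density of summits away from TSSs was 19.9 per Mb on X and 13.6 to 16.9 on the arms.

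**Figure D4:**
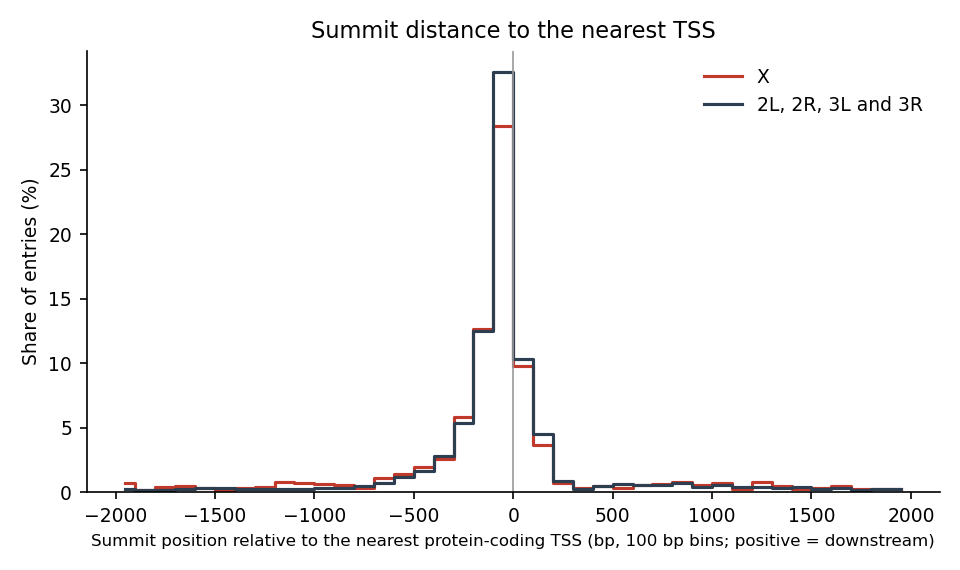
Share of entries (%, vertical axis) by the position of the summit relative to the nearest protein-coding TSS (horizontal axis, bp, bins of 100 bp, negative upstream), for X and for the pooled arms 2L, 2R, 3L and 3R. Both peak in the 100 bp upstream of the TSS, with 28.4% of X entries and 32.6% of the others.

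Introns held a larger share of the entries on X than on the autosomal arms. By annotation 470 X summits (33.7%, 31.2 to 36.3) lay in an intron, against 25.9 to 27.1% on the single arms, a difference of 7.14 points (4.45 to 9.90) from the pooled arms. Intergenic summits were the largest class on X as on the arms, but with a smaller share on X, 43.5% against 50.5%. The 5′ UTR held 16.6% on X and 15.7% on the arms, coding exons 2.01% and 2.85%, and 3′ UTRs 2.30% and 2.05%. Intron length on X and on the arms was not compared here.

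More than 5 kb from any protein-coding TSS lay 123 X entries (8.82%, against 9.08% on the arms), in 117 regions and mostly in introns (93). Their signals ran from 3.66 to 1197 with a median of 125, and 58 overlapped peaks of both replicates. The strongest, chrX:12750857-12751619, lay in an exon of the long noncoding RNA Vinr, 505 bp from a noncoding start and 5045 bp from CG4004, with a signal of 1197 (344 and 798). The next, chrX:13421097-13421534, was intergenic, 8080 bp from Set2, the histone H3K36 methyltransferase gene, with 941 (365 and 579). The third, nearest to Rilpl, had 551 (168 and 384).

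Of the 2196 protein-coding genes on X, 977 were bound, meaning that a summit lay within 500 bp of any of their TSSs (44.5%). On the 4 large autosomal arms 40.2% were bound, and single arms ran from 37.6% to 42.8%. Bound X genes had a median signal of 218.3 and a 90th percentile of 769, against 259 and 1164 for bound genes on the arms. Genes with a divergent neighbour starting within 1000 bp upstream were bound at 70.6% on X (535 of 758) and at 66.0% on the arms, where 2R was slightly above X at 70.98%. Genes without such a neighbour were bound at 30.7% on X and 26.01% on the arms, with 24.2 to 27.8% on the single arms. A summit between the starts of a divergent pair can count for both genes, so part of this contrast can follow from the definition. With the nearest TSS only, 34.7% of all X genes were bound. Among the 1000 strongest entries alone the order turned, with 4.64% of X genes bound, 3.83 points fewer than on the arms.

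The E2F, RB and dREAM genes on X were 4, of which 2 were bound, near the share of 44.5% over all X genes. All 9 on the arms were bound, where the share over all genes was 40.2%. Rbf, the main retinoblastoma homologue and the partner of E2f2, had a peak of 991, 212 bp from one of its TSSs, with 393 in replicate 1 and 595 in replicate 2. The summit fell in an annotated 3′ UTR. The gene of mip130, a DNA-binding dREAM subunit, had 132 in a peak shared with Edem1 and overlapping a thresholded peak of replicate 1 only. lin-52 had its nearest summit 510 bp away and was counted in replicate 1 only. Myb was counted in the larger thresholded list alone, with its nearest conservative summit 2221 bp away.

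DNA replication genes were bound nearly throughout on X, 8 of 9, but with lower peaks than on the autosomes. Over all genes 44.5% were bound on X and 40.2% on the arms. The median signal of the replication genes on X was 289 (137 to 493 over the 8), against 685 over the 45 bound of 47 on the arms. The range on X thus ended below the autosomal median. Mcm3, another helicase subunit, was highest with 493 (197 and 306). Caf1-180, of the chromatin assembly factor, had 438 (158 and 286), and Cdc7, the kinase that fires origins, had 341 (119 and 207). Chrac-16 was the unbound member, and it had a peak in replicate 2.

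Mitosis and meiosis genes were bound at 15 of 17, with a median of 251, against 79 of 86 and 525 on the arms. The shares over all genes were 44.5% on X and 40.2% on the arms. Here the spread on X was wide, from 79.1 to 1475. Besides mei-38 and Ndc80, feo, of the central spindle, had 1252 (500 and 749), and nod, a meiotic kinesin-like gene, had 482. Cohesin's SMC3 and the APC/C activator fzr were unbound, and both had a peak in replicate 2. Klp3A and Zw10 shared a single peak of 251.

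All 8 X genes of DNA repair and checkpoints were bound, beside 44.5% of all X genes. So were all 40 on the arms, beside 40.2% of all arm genes. The medians were 199 and 365. The nuclease gene mus81 had 485 (176 and 301), mus101 had the value given above, mei-41, the fly ATR kinase, had 327 (113 and 210), and DNAlig4, a DNA ligase, had 200.5 (46.1 and 148). The summit at mei-41 was nearest to TH1 and that at DNAlig4 to CG11164. Of the G1 and S regulators 2 of 5 were bound on X, a share near that of all X genes, and 12 of 15 (80.0%) on the arms, above the 40.2% of all arm genes. SkpA, of the SCF ubiquitin ligase, had 157, and rux, a Cdk inhibitor, had 95.7. CycD, the gene of cyclin D, was counted unbound at a distance of 509 bp, just past the window, and was bound in replicate 1, while Myc had no summit within 8012 bp.

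Growth and metabolism genes gave mixed orders. The share bound over all genes was 44.5% on X and 40.2% on the arms. Ribosomal protein genes were bound at 12 of 14 on X and 63 of 77 on the arms, with medians of 183 and 272. RpL37-1 stood apart at 1134 (359 and 758), followed by RpL36 (432), RpL22 (274) and RpS10b (228). RpL7A and RpS6 were unbound in the conservative list, but RpL7A had a peak in replicate 2 and in the larger list. Of the X genes of oxidative phosphorylation 11 of 12 were bound, and 43 of 74 on the arms, with medians of 255 and 202. ND-24, of respiratory complex I, was highest with 607 (240 and 370), then ND-ASHI (327), ND-18 (294) and ND-75 (263), and ATPsyndelta had its nearest summit at 521 bp. Mitochondrial ribosomal protein genes were bound at 8 of 11 on X and 46 of 62 on the arms, with medians of 363 and 167. mRpL38 had 940 (323 and 606), mRpL22 637 in a peak shared with the integrin gene if, mRpS14 593 and mRpL30 364. mRpL3 and mRpL49 were unbound, and mRpL49 had a peak in replicate 2. The lower median on X was thus not common to all lists: it held for replication, mitosis, repair, G1 and S regulators, germline, Polycomb and ribosomal protein genes, and the order was the other way for the mitochondrial lists, signalling and sex determination. For the E2F list the medians were 562 and 566. These are counts over short lists, with no test, and the lists are not separate groups. The genes snf and Sxl are in both the germline and the sex determination lists, and fs(1)h is in both the germline and the Polycomb lists.

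**Figure D5:**
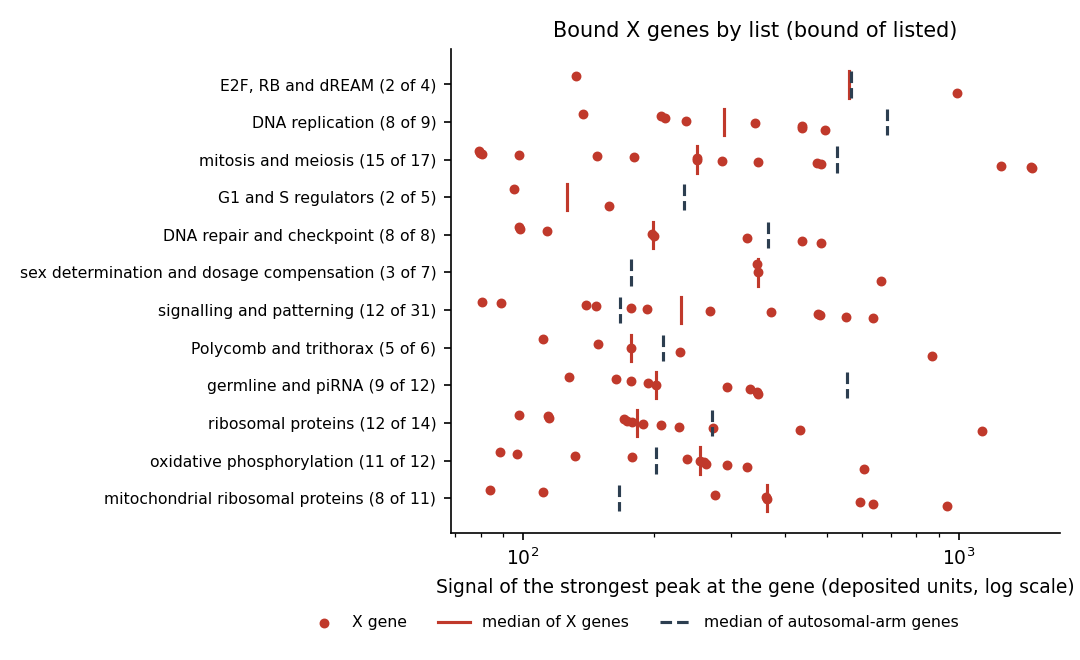
Signal of the strongest peak within 500 bp of a TSS (horizontal axis, deposited units, log scale) for each bound X gene of the lists with at least 2 bound members (vertical axis, with bound of listed), with the median of X genes (solid) and of autosomal-arm genes (dashed). The X median lies left of the autosomal one for DNA replication (289 against 685) and right of it for mitochondrial ribosomal proteins (363 against 167).

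Genes of the germ line were bound at 9 of 12 on X, with a median of 202 against 554 for the 22 of 31 on the arms. Among all genes 44.5% were bound on X and 40.2% on the arms. The RNA-binding genes snf and Sxl had 346 and 344, fs(1)Yb, of the piRNA pathway in somatic gonad cells, had 333 (120 and 215), and the exonuclease gene pcm, 354 bp from the summit of the ND-18 peak, counted through that peak (294). The summit at fs(1)Yb was nearest to CG2701. gd and moon were unbound. Polycomb and trithorax genes were bound at 5 of 6, led by the paired genes ph-p with 871 (282 and 659) and ph-d with 229, then fs(1)h with 177 and Bap60 with 148, in peaks nearest to mys and CG12096, and Bap111 had a peak in replicate 2 only. ph-p and ph-d are near-identical copies in part, and how reads common to both were placed is not stated.

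The lowest counts came from gene families of differentiated cells, while developmental genes were near the share of all X genes. Signalling and patterning genes were bound at 12 of 31 (38.7%), beside 44.5% of all X genes, and at 7 of 25 (28.0%) on the arms, beside 40.2% of all arm genes. Among the bound ones the integrin gene if had 637, arm (beta-catenin) 552, sgg (the GSK3 kinase) 482 and csw (a phosphatase) 477. The homeobox genes B-H1 and B-H2 were unbound. Eggshell genes were bound at 1 of 9. That peak, at fs(1)N (592), lay nearer to the start of its divergent neighbour DAAM, and the chorion genes Cp36 and Cp38 were unbound. Chemosensory receptor genes were bound at 1 of 25 on X and 6 of 154 on the arms. The bound one, Gr5a, counted through a peak of 396 that lay 494 bp away and was nearest to Tre1, and Gr10a and Gr10b were unbound. None of the 4 X cuticle protein genes was bound, Cpr11A and Cpr11B among them. None of the 13 Stellate repeat genes had an entry within 500 bp, in the conservative list or in the ranked lists. Ste12DOR and Ste:CG33236 are the first by name. They are near-identical copies, so their state cannot be told from these lists.

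The genes that run sex determination and dosage compensation were bound at 3 of 7 on X (42.9%), close to the 44.5% of all X genes, and at 14 of 25 (56.0%) on the arms, beside 40.2% of all arm genes. mof, the acetyltransferase of the MSL complex, had a peak 14 bp from its TSS with 663, and 230 and 437 in the replicates. Sxl, the switch gene that represses dosage compensation in females, had 344 (125 and 228), and snf, its splicing partner, had 346 (120 and 221) in a peak shared with Cdk7. The X-linked numerator genes sisA, sc, upd1 and run were all unbound, with their nearest summits 14017 to 59278 bp away.

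roX2 (chrX:11579065-11580432) overlapped 2 entries of the conservative list. One, chrX:11580155-11580962, covered the end of roX2, had its summit 28 bp upstream of the TSS of nod, and had a signal of 482, with 134 and 314 in the replicates. The 134 is from a replicate 1 entry that did not overlap roX2 itself. The thresholded replicate 1 entry that did, chrX:11580319-11580529, had 98.8. The other conservative entry, chrX:11578999-11579131, had its summit 9 bp from a noncoding TSS at the start of roX2, with 150, and overlapped a thresholded peak of replicate 2 only (47.3 and 98.9). The GA repeat was present 2 times within the first interval and not within 100 bp of either summit. roX1 (chrX:3857230-3862697) overlapped no entry of the conservative list. It overlapped 1 entry of the larger list and 1 of replicate 2, with signals of 83.4 and 61.1, and none of replicate 1.

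The share of X entries found in both replicates was within the range of the single arms. Of the 1394, 951 (68.2%, 65.7 to 70.7) overlapped a thresholded peak of each replicate by at least 1 bp, 320 overlapped one of replicate 2 only, 25 one of replicate 1 only, and 98 overlapped neither. The share in both was 66.0 to 70.9% on the single arms, and the difference from the pooled arms was −0.772 points (−3.52 to 1.90). With 50% reciprocal overlap it was −4.50 points (−7.42 to −1.59). The entries in both replicates were the taller ones, with a median signal of 240, against 105 for those in replicate 2 only and 73.2 for those in neither. Near TSSs 76.9% of X entries and 78.1% of the others were in both replicates, and away from TSSs 51.1% and 46.1%. The replicate signals of X entries had a Spearman's rho of 0.822 over 1390 entries, a description across entries that share libraries.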

How the data were processed

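Peak lists of ChIP-seq from 2 biological replicates were analysed. Per the labels, coordinates are dm6. Aligner, caller and depth are not stated in the sources available, and the intervals therefore reflect counting of entries or genes alone. The signal of each entry was computed by the authors before deposit, and its scale is not stated. The deposited score is the authors' whole number from the IDR step and was used only to check the lists. Summits, counted from 1, were set against TSSs of Ensembl release 115, and sequences were read from RefSeq's Release 6. "The arms" means 2L, 2R, 3L and 3R pooled; chromosome 4 is given apart. A replicate signal is that of the overlapping ranked entry with the nearest summit. Where annotations overlapped at a summit, UTRs and coding exons took precedence over noncoding exons, introns and intergenic sequence. Shares have exact Clopper-Pearson 95% intervals, differences Newcombe intervals and medians order-statistic intervals; no test was run over entries. Python 3.11.15, pandas 2.3.3 and SciPy 1.17.1 were used, and the functions were tested on simulated data. The members, motifs and 16 gene lists were chosen with earlier results of these data known; 24 listed symbols matched no gene. Named genes were those nearest the 20 X regions of highest signal, all X genes of the E2F list, up to 4 bound and 2 unbound X genes of each other list, roX1, roX2 and those nearest the 3 strongest regions over 5 kb from a TSS; genes of printed sequences, Klp3A and Zw10 as a shared peak, the other unbound numerator genes, and neighbours were named after their values were seen.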

Additional observations from a re-analysis of the deposited data

How the results depend on the processing

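The share of entries on X was 10.5% among the 1000 strongest entries. X entries per Mb were 70.0 in the larger list, 51.4 with one entry per merged region, 4.46 among the 1000 strongest and 39.6 to 64.7 in the lists of single replicates. X summits near a TSS were 62.5% in the larger list and 87.6% of the X entries among the 1000 strongest. They were 58.5% with a window of 250 bp, 73.5% with 1000 bp and 58.5% with gene 5′ ends. In single replicates they were 63.6 to 74.3%. Their difference from the arms was −0.972 points among the 1000 strongest and −4.83 to −3.51 in single replicates. The ratio of median signal was 0.899 to 1.004 in single replicates and turned to 1.08 away from TSSs. The share of X entries in both replicates was 58.3% in the larger list and 100% of those among the 1000 strongest. It was 50.7% with 50% reciprocal overlap and 58.8% by summits within 100 bp. Its difference from the arms was 0.735 points in the larger list and −4.50 with reciprocal overlap. Bound X genes were 48.6% in the larger list, 4.64% among the 1000 strongest, 39.3% and 48.9% with windows of 250 and 1000 bp, 34.7% with the nearest TSS only and 36.5 to 45.5% in single replicates; the difference was −3.83 points among the 1000 strongest and 3.38 to 3.77 in single replicates. Among the X entries of the 1000 strongest, 8.57% had the E2F sequence. Its share of all X entries was 2.94% and 9.18% with windows of 50 and 250 bp. In single replicates it was at 4.86 to 5.57% of X entries. The GA repeat on X was at 0.952%, 0.861%, 7.10% and 1.57 to 1.93% in the same order of settings. Changes with the window or the list's size follow from how these are built; the cause of the others was not tested. The share of the 1000 strongest entries on X, recomputed as alternatives chosen after seeing the data, was 10.4 to 11.9%. No paired analysis was possible because the 2 replicates form a single group. Depth is unknown, there are 2 replicates, and differences between arms have no replicate check beyond them.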

Other observations

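The 2 replicates differed in how many low-ranked entries they placed on X. In the ranked list of replicate 1, X held 8656 of 52974 entries (16.3%), or 368 per Mb, fewer than any of the 4 large autosomal arms (398 to 416 per Mb). In that of replicate 2, X held 14949 of 76811 (19.5%), or 635 per Mb, more than any of them (552 to 592 per Mb). In the thresholded lists the shares were close, 18.7% and 18.5%. Of the ranked entries of the series, 8.92% on X and 8.68 to 9.62% on the 4 arms were in the conservative list. GC content within 100 bp of the summit had a median of 38.3% on X and 36.3 to 37.8% on the 4 arms.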
